A study of Sus scrofa domesticus with 36 samples.

Results

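The genes described here encode the protein subunits of the mitochondrial ribosome and are named MRPL for the large and MRPS for the small subunit. They were chosen by symbol alone: every row of the deposited count table whose Ensembl ID maps to a pig symbol that begins with MRPL or MRPS was taken. The rule found 44 genes, 30 MRPL and 14 MRPS, of 25322 gene rows in all, each from 1 row. A further 21 of the 65 such symbols in the table of pig gene names had no row by that name and are not analysed here. Of the 44 genes, 43 passed the filter on low counts, which left 12542 genes in all.

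RNA was sequenced from 2 tissues of each of 18 pigs of a Danbred 600 × Newsham NC32 cross: subcutaneous adipose tissue (backfat, taken between rib 8 and the last rib) and skeletal muscle (longissimus dorsi), with 18 libraries per tissue. The pigs were untreated animals of 1 cross, killed by captive bolt and bleeding, and both tissues of a pig carry the same number. The design text places sampling 3 weeks after weaning, whereas the labels give an age of 16 to 17 days and the stage weaning, so the age at sampling is uncertain. By the design 9 of the 18 pigs had been picked for slow growth, but the class of each pig is not in the labels used here, so all 18 pigs form 1 group per tissue.

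Mitochondria keep a ribosome of their own, separate from the cytosolic one, which makes the few proteins still encoded in mitochondrial DNA. Those proteins are core subunits of the respiratory chain and ATP synthase, so the mitochondrial ribosome works together with many nuclear-encoded respiratory chain subunits. The ribosomal proteins themselves are encoded in the nucleus, made in the cytosol and imported. Some descend from bacterial ribosomal proteins, and others were added in the mitochondrial lineage. Skeletal muscle is rich in mitochondria, and white adipose tissue holds fewer per cell. The roles given below are known from structures of the pig and human mitochondrial ribosome and from bacteria.

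Gene counts per library ranged over 2990913 to 5373406 in adipose and over 4716541 to 6216459 in muscle. The mitochondrial ribosomal protein genes together received 5037 to 9209 counts in an adipose library and 6213 to 10864 in a muscle library. The tissue labels matched the marker genes: all 6 tested adipocyte markers rose in adipose (median log2 difference 4.78) and all 6 tested skeletal muscle markers fell (median -6.54). The adipose libraries differed in muscle RNA, with summed muscle markers from 107 to 22346 counts per 1000000 (CPM), against 72201 to 398869 CPM in muscle. Summed adipocyte markers were at 1263 to 2262 CPM in adipose and at 92.5 to 304 CPM in muscle. All tested markers of macrophages (4), lymphocytes (3), endothelium (4), fibroblasts (6) and the cell cycle (7) also rose in adipose, with median log2 differences of 2.29, 1.96, 0.72, 2.41 and 1.08 in that order, and their part in the results below was not tested. These are bulk tissues, so fewer cells of a type and less RNA per cell cannot be told apart.

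Most mitochondrial ribosomal protein genes were lower in adipose than in muscle. By edgeR's quasi-likelihood test with Benjamini-Hochberg adjustment over all 12542 genes (adjusted p under 0.05), 39 of the 43 fell in adipose, where 39.2% of all genes did. MRPS6 and MRPS34 rose in adipose, as did 46.7% of all genes, and MRPL10 and MRPS10 did not pass. In either direction 85.9% of all genes passed, so passing the test sets few genes apart in this comparison. The median log2 difference of the 43 genes, adipose minus muscle, was -1.30, against 0.14 for all genes tested. In 32 of them the level in adipose was lower by at least 2-fold with an adjusted p under 0.05, where 20.9% of all genes were. In 35 genes the adipose library was below the muscle library of the same animal in all 18 pigs (25.2% of all genes), and in 33 every adipose library was below every muscle library (17.6% of all genes).

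**Figure D1:**
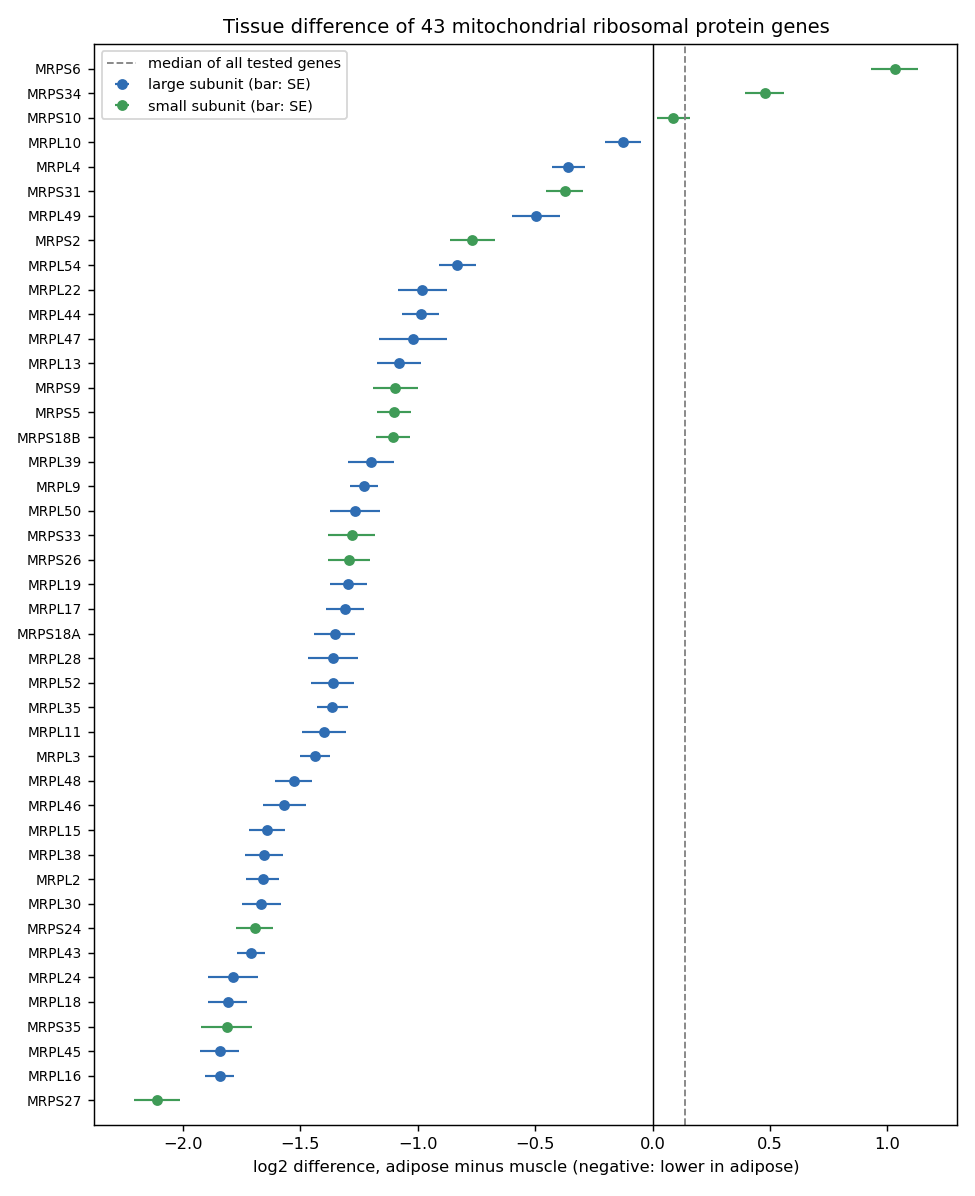
The log2 difference (x axis, adipose minus muscle) of each of the 43 tested mitochondrial ribosomal protein genes (y axis), with its SE, coloured by subunit. All but MRPS6, MRPS34 and MRPS10 lie below 0, and the dashed line marks the median of all tested genes at 0.14.

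These directions depend on how the libraries are scaled. The 10 genes with the most counts took 10.6% of the gene counts in adipose and 29.2% in muscle, on average. The levels here use trimmed-mean (TMM) factors, which correct for such genes. With library totals alone, the differences moved up and the median of all genes was 1.5, a shift of 1.37. On that scale 16 of the 43 genes rose (80.9% of all genes did), 12 fell (12.1% of all genes did) and 15 did not pass, with a median of 0.07. Relative to the median of all genes the 43 stood at -1.43 with TMM factors and at -1.44 with library totals, and 41 of 43 were below that median under both. A change of scale moves all genes by nearly the same amount, so this agreement follows by construction and is no separate support. A fall in adipose is therefore stated relative to the other genes. As a plain share of all gene counts the 44 genes made up 0.162% ± 0.0161 in adipose and 0.148% ± 0.0308 in muscle (SD, n = 18 each).

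Among the large-subunit genes, 29 of 30 tested fell in adipose, none rose, and MRPL10 did not pass (median -1.36). Among the small-subunit genes 10 of 13 fell, 2 rose and 1 did not pass (median -1.10). MRPS18A is counted with the large subunit, where its protein sits in mammals. Genes with a bacterial counterpart and genes specific to mitochondria had like medians: -1.30 over 24 tested genes, of which 21 fell, and -1.29 over 19, of which 18 fell.

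Near the peptidyl transferase centre, where peptide bonds form, the 3 measured genes all fell. MRPL16 had 12.8 CPM in the lowest, 15.3 in the median and 17.6 in the highest adipose library, against 36.5, 54.7 and 67.9 CPM in muscle. The 2 ranges did not touch, and its log2 difference was -1.84 ± 0.063 (SE, n = 18 libraries per tissue, edgeR adjusted p = 1.36e-25). That fit held tissue alone and did not pair the libraries of a pig. With the pig number as a block the edgeR adjusted p was 2.77e-18. The edgeR SEs and adjusted p values below come from the fit without the block. MRPL2 ran from 12.01 CPM through a median of 17.3 to 22.6 CPM in adipose, against 41.9, 52.8 and 64.8 CPM in muscle, again without overlap (-1.66 ± 0.069). MRPL3 ran from 26.1 through 32.4 to 38.7 CPM in adipose, against 76.5, 83.7 and 133 CPM in muscle (-1.44 ± 0.062), and its ranges were also apart.

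At the exit tunnel, through which the new protein leaves, all 4 measured genes fell, with a median of -1.40. MRPL45, which in human cells holds the ribosome at the inner membrane, had 15.7, 20.7 and 26.5 CPM (lowest, median and highest library) in adipose and 59.5, 70.1 and 117 CPM in muscle (-1.84 ± 0.084, no overlap). MRPL24 had 26.1, 35.97 and 49.4 CPM in adipose and 89.8, 120 and 242.02 CPM in muscle (-1.79 ± 0.106, no overlap). MRPL22 (-0.98 ± 0.105) also had no overlap. MRPL47 had the widest error of all 43 genes (-1.02 ± 0.144): its adipose libraries spanned 4.51 to 18.4 CPM and its muscle libraries 15.04 to 41.4 CPM, so the ranges met, although adipose was lower in all 18 pigs.

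The 2 measured genes of the stalk, which brings translation factors to the ribosome, parted. MRPL11 had 12.4, 17.9 and 21.2 CPM in adipose and 27.6, 44.8 and 63.4 CPM in muscle, with no overlap (-1.40 ± 0.093). MRPL10 had 19.9, 25.6 and 32.4 CPM in adipose and 20.1, 29.3 and 35.8 CPM in muscle. Its ranges nearly coincided, and the difference of -0.13 ± 0.075 did not pass (edgeR adjusted p = 0.115), with adipose lower in 13 of 18 pigs.

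On the small subunit, MRPS27, an RNA-binding protein in human mitochondria, had the lowest log2 difference of the 43 genes. It had 13.97, 23.1 and 28.3 CPM in adipose and 50.8, 97.3 and 124 CPM in muscle, and every adipose library was below every muscle library (-2.11 ± 0.100, edgeR adjusted p = 1.84e-21). MRPS35 had 9.99, 18 and 25.5 CPM in adipose and 49.6, 58.5 and 120 CPM in muscle (-1.81 ± 0.109), again apart. MRPS24, the counterpart of bacterial S3 where mRNA enters, had 10.1, 13.6 and 16.6 CPM in adipose and 32.8, 43.4 and 75.9 CPM in muscle (-1.70 ± 0.078), also without overlap. MRPS5, also on the mRNA path, fell by less (-1.10 ± 0.072). MRPS2 fell by 0.77 with an SE of 0.095, with 18.8, 24.6 and 40.4 CPM in adipose and 31.2, 39.8 and 61.3 CPM in muscle. Its ranges overlapped, and adipose was lower in 17 of 18 pigs.

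MRPS6 and MRPS34 went the other way. MRPS6, the counterpart of bacterial S6, had 25.2, 37.6 and 53.9 CPM in adipose (lowest, median and highest library) and 13.7, 18.3 and 29.9 CPM in muscle. Its ranges overlapped between 25.2 and 29.9 CPM, where 3 muscle libraries (pigs Sample_186, Sample_231 and Sample_889) and 1 adipose library (pig Sample_835) lie, but adipose was higher in all 18 pigs (1.03 ± 0.101, edgeR adjusted p = 4.54e-12). MRPS34, a mitochondria-specific subunit that in humans is needed for a stable small subunit, had 30.1, 43.6 and 53.3 CPM in adipose and 20.9, 30.6 and 40.3 CPM in muscle. Its ranges overlapped more, yet adipose was again higher in all 18 pigs (0.48 ± 0.084, edgeR adjusted p = 2.65e-06). A higher level in adipose in all 18 pigs was seen in 28.6% of all genes. MRPS10, named because it did not pass, had 31.1, 39.6 and 48.1 CPM in adipose and 23.9, 35.7 and 50.4 CPM in muscle, with adipose higher in 12 of 18 pigs (0.09 ± 0.071, edgeR adjusted p = 0.239).

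**Figure D2:**
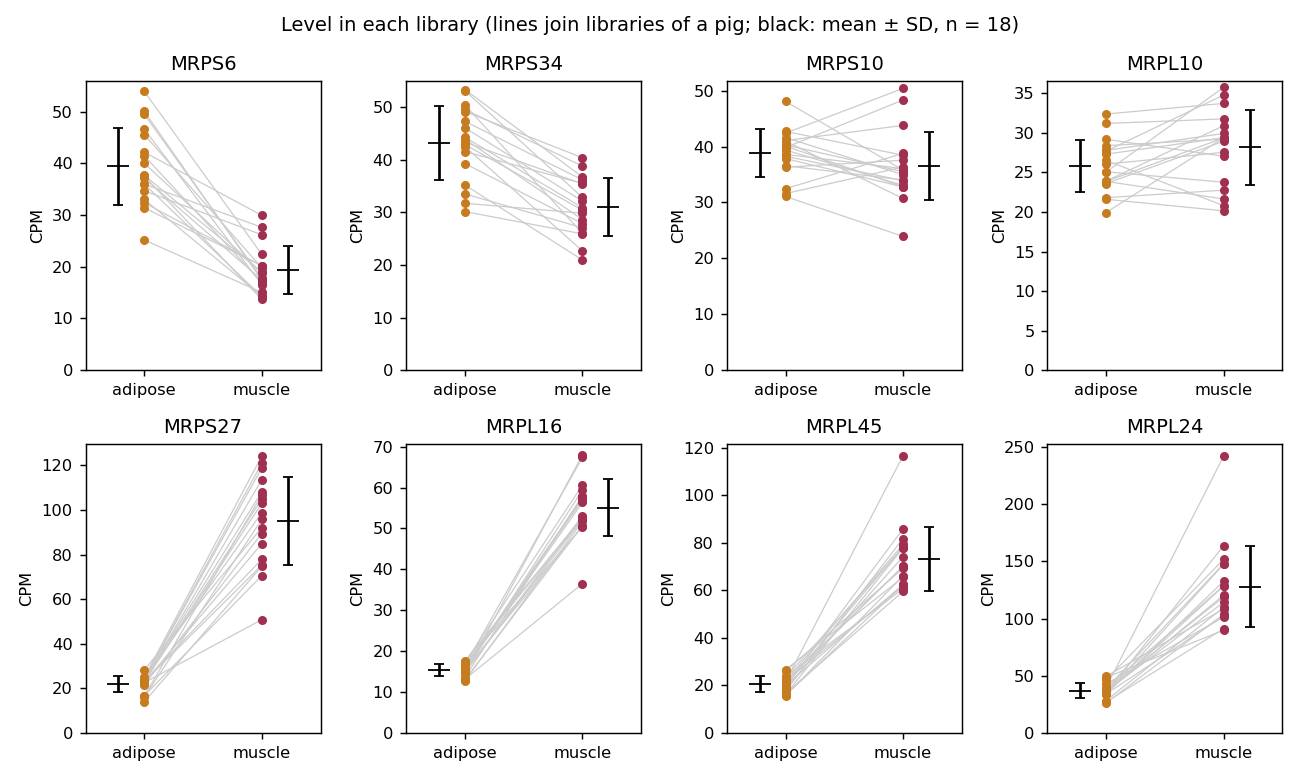
Level in CPM (y axis, from 0) of 8 genes in each library, adipose on the left and muscle on the right, with lines joining the libraries of a pig and the mean ± SD of 18 libraries in black. MRPS6 and MRPS34 slope down to muscle in every pig, MRPS10 and MRPL10 cross, and MRPS27, MRPL16, MRPL45 and MRPL24 leave a gap between the tissues.

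The other genes that fell lay between -1.81 and -0.36. MRPL18, at the central protuberance of the large subunit, had 16.1, 19.3 and 29.6 CPM in adipose and 52, 71 and 91.6 CPM in muscle (-1.81 ± 0.084), a wide gap. MRPL43, a mitochondria-specific subunit, had 13.3, 17.6 and 19.7 CPM in adipose and 47.1, 55.8 and 69.5 CPM in muscle (-1.71 ± 0.061), also apart. MRPL38, at the central protuberance as well, had 22.9, 31.8 and 39.8 CPM in adipose and 76.5, 94.7 and 152 CPM in muscle (-1.66 ± 0.082). MRPL30 was at -1.67, MRPL15 -1.64, MRPL46 -1.57 and MRPL48 -1.53. The 6 genes with the highest mean CPM were MRPL28, MRPL17, MRPS26, MRPL24, MRPL9 and MRPL38, an order that gene length can set. MRPL28, a counterpart of bacterial L28, had 46.6, 58.5 and 83.5 CPM in adipose and 106, 134 and 295 CPM in muscle (-1.36 ± 0.106). MRPL17 had 41.1, 54 and 65.6 CPM in adipose and 106, 127 and 232 CPM in muscle (-1.31 ± 0.080). MRPS26, specific to mitochondria, had 37.9, 53.8 and 67.8 CPM in adipose and 95.7, 135 and 215 CPM in muscle (-1.29 ± 0.090), and MRPL9 had 33.5, 40.7 and 46.7 CPM in adipose and 73.4, 93.6 and 138 CPM in muscle (-1.23 ± 0.060). None of these overlapped between the tissues. A middle group held MRPL35 and MRPL52 at -1.36, MRPS18A at -1.35, MRPL19 at -1.30, MRPS33 at -1.28, MRPL50 at -1.27 and MRPL39 at -1.20. MRPL39 is related to threonyl-tRNA synthetases, and it was below muscle in all 18 pigs although its ranges met at 9.37 to 9.40 CPM. Both measured genes of the MRPS18 family fell: MRPS18A in the large subunit and MRPS18B, at -1.11, in the small one. MRPS9 was at -1.10, MRPL13 at -1.08, MRPL44, related to RNase III, at -0.99 and MRPL54 at -0.83. The 3 smallest falls, in MRPL49 (-0.50 ± 0.102), MRPS31 (-0.37 ± 0.078) and MRPL4 (-0.36 ± 0.072), came with overlapping ranges and with adipose lower in 15, 16 and 17 of 18 pigs. MRPL55 was left out by the filter, since most libraries had no count for it: its median was 0 in both tissues, its mean 0.0372 CPM in adipose and 0.0526 CPM in muscle, and its highest library 0.295 CPM in adipose and 0.576 CPM in muscle.

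For 12 of the 44 genes the RefSeq gene table of Sscrofa11.1 places another protein-coding gene on the same stretch of chromosome. The library strand is not stated, so reads of such neighbours could not be told apart. The count table holds a separate line of ambiguous reads, at 0.57% to 0.87% of an adipose and 0.58% to 0.94% of a muscle library. How many of them come from these overlaps was not tested. MRPS27 overlaps PTCD2, which itself fell in adipose (-1.30 ± 0.063). MRPL43 overlaps TWNK, the mitochondrial DNA helicase, which also fell (-1.12 ± 0.064). MRPL2 overlaps KLC4 (-0.57 ± 0.104), and MRPL19 overlaps GCFC2, which rose in adipose (0.64 ± 0.140). MRPL49 overlaps FAU, which encodes a cytosolic ribosomal protein and rose in adipose (0.70 ± 0.070). MRPL47 overlaps ACTL6A (0.05 ± 0.075), and MRPS18B overlaps PPP1R10 (0.12 ± 0.088), neither of which passed. MRPS6 overlaps SLC5A3, an inositol transporter gene with no row by that name, so the part of its reads in the rise of MRPS6 was not tested. Further overlaps are those of MRPL28 with TMEM8A, MRPL49 with SYVN1, MRPS26 with GNRH2, MRPL9 with OAZ3 and MRPS2 with LOC110258970, neighbours that were not tested. MRPS34, MRPS10 and MRPL10 overlap no other gene in that table.

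Summed over the 44 genes, the level ranged over 842 CPM (pig Sample_186) to 1202 CPM (pig Sample_911) in adipose, with a median of 995 CPM. In muscle it ranged over 2016 CPM (pig Sample_114) to 3501 CPM (pig Sample_231), with a median of 2320 CPM. On this TMM scale the tissues were apart in every library. As a plain share of all gene counts the ranges overlapped, at 0.124% to 0.192% in adipose and 0.114% to 0.219% in muscle. On the TMM scale the muscle library of pig Sample_231 stood above the next highest, at 2711 CPM. It held the highest muscle level for 26 of the 43 tested genes. Its summed respiratory chain level, 21259 CPM, was also the highest of the muscle libraries on that scale. As a plain share it held 0.174%, below the 0.219% of the muscle library of pig Sample_572. In adipose the highest TMM-scaled level fell to pig Sample_911 for 16 genes and to pig Sample_889 for 11. Their plain shares in adipose were 0.175% and 0.192%. Spread between pigs was moderate: the median coefficient of variation was 15.8% in adipose and 18.4% in muscle.

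The respiratory chain subunits had larger falls in adipose than the ribosomal proteins, by the medians and by the ratios within a library given below. Of 80 listed nuclear-encoded subunits 41 were measured, and 40 fell in adipose with a median log2 difference of -2.47. The medians were -2.53 over 21 genes of complex I, -2.30 over 4 of complex II, -2.95 over 6 of complex III, -2.09 over 5 of complex IV and -2.41 over 5 of complex V. NDUFB10 of complex I was at -1.56 ± 0.106 and NDUFA4, first assigned to complex I, at -3.24 ± 0.154. SDHA of complex II was at -2.47 ± 0.086, UQCRFS1 of complex III at -3.14 ± 0.105, COX5A of complex IV at -3.62 ± 0.120 and ATP5F1A of complex V at -2.76 ± 0.145. COX8A of complex IV rose (0.29 ± 0.122, edgeR adjusted p = 0.0258), with overlapping ranges of 42.7 to 103 CPM in adipose and 28.7 to 75.9 CPM in muscle. All 11 measured tricarboxylic acid (TCA) cycle genes fell (median -2.85), among them OGDH (-2.64 ± 0.092), SUCLG1 (-2.89 ± 0.090) and SUCLA2 (-3.24 ± 0.143).

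Ratios taken within a library do not depend on how libraries are scaled. For every 100 counts of respiratory chain subunits, adipose libraries held 38.3 ± 3.91 counts of mitochondrial ribosomal protein genes and muscle libraries 16.5 ± 2.60 (SD, n = 18 each). Adipose libraries lay between 30.7 (pig Sample_731) and 43.9 (pig Sample_572), and muscle libraries between 13.3 (pig Sample_889) and 24.3 (pig Sample_735), with the next at 19.9. The muscle library of pig Sample_735 also had the lowest summed respiratory chain level in muscle (8897 CPM) and the lowest ACTA1 (22408 CPM). The tissues did not overlap, and adipose was higher in all 18 pigs. Among adipose libraries, the 4 with the highest level of the muscle actin ACTA1 (3433 to 17526 CPM) had ratios of 30.7 to 39.2 with a median of 35.4, and the other 14 (52.4 to 2448 CPM) had ratios of 31.8 to 43.9 with a median of 39.0. Both sets lay above every muscle library, and the part of muscle RNA in the spread among adipose libraries was not tested. For every 100 counts of TCA cycle genes, adipose libraries held 118 ± 12.3 such counts (88.6 to 137) and muscle libraries 41.0 ± 6.61 (34.0 to 60.8), also without overlap.

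Small-subunit genes held 54.0 ± 2.55 counts for every 100 of large-subunit genes in adipose (49.9 to 60.2), and 38.9 ± 1.70 in muscle (34.8 to 41.1). The tissues did not overlap, and adipose was higher in all 18 pigs. Without MRPS6, MRPS34 and MRPS10, left out after their values were seen, the ratio was 35.3 ± 1.82 in adipose and 33.8 ± 1.63 in muscle. Adipose was then higher in 13 of 18 pigs. Those 3 small-subunit genes had the highest log2 differences of all 43, so a narrower gap follows by construction. These ratios describe the measured genes and say nothing of the number of subunits in the cell.

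**Figure D3:**
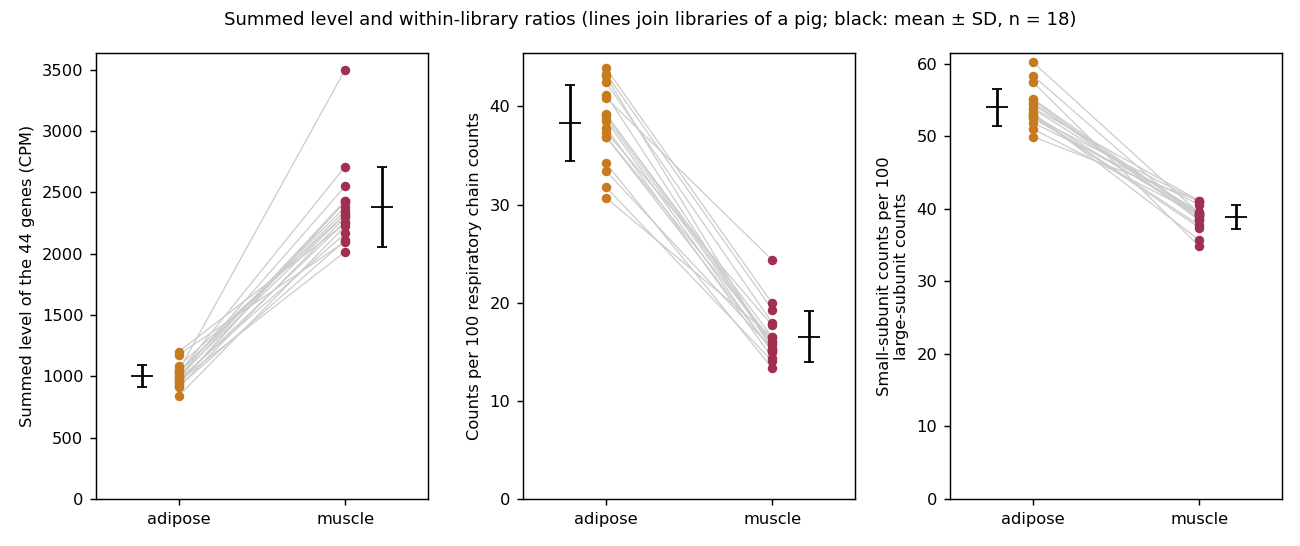
Summed level of the 44 genes in CPM, their counts per 100 respiratory chain counts, and small-subunit counts per 100 large-subunit counts (y axes, from 0) in each library, adipose on the left and muscle on the right, with lines joining a pig and the mean ± SD of 18 libraries in black. The summed level, scaled with TMM factors, is lower in adipose in all 18 pigs, and both ratios, which need no scaling, are higher.

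Other genes of mitochondrial protein synthesis were measured alongside. Of 5 listed ribosomal proteins with other names 3 had a row, all of the small subunit, and all 3 fell: PTCD3 (-1.69 ± 0.066), CHCHD1 (-1.50 ± 0.077) and DAP3 (-1.14 ± 0.113). Of 11 translation factor genes 10 fell and 1 rose (median -0.92). TUFM, the elongation factor that delivers aminoacyl-tRNA, was at -1.86 ± 0.086, and GFM1, the translocase, at -2.09 ± 0.101. OXA1L, which inserts new proteins into the inner membrane, was at -1.72 ± 0.091, while MTIF2, the initiation factor, was at -0.48 ± 0.082. MTRF1L, a release factor, rose in adipose (0.88 ± 0.127) and was higher there in 16 of 18 pigs.

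Ribosome assembly factors had a smaller median difference, with 11 of 15 lower in adipose, 1 higher and 3 not passing (median -0.60). MTG1, an assembly GTPase, was at -1.79 ± 0.104, MTERF3 at -1.15 ± 0.074 and GTPBP10 at -0.55 ± 0.115. The helicase DHX30 did not pass (0.03 ± 0.060). MRM1, which methylates mitochondrial rRNA, was the 1 that rose (0.31 ± 0.109). Of 13 mitochondrial aminoacyl-tRNA synthetase genes 6 fell, near the 39.2% of all genes that did, 2 rose and 5 did not pass (median -0.18, against 0.14 for all genes). NARS2 (-1.92 ± 0.136), IARS2 (-1.54 ± 0.068) and LARS2 (-1.32) fell by more than 2-fold, VARS2 (-0.35 ± 0.106) and HARS2 (-0.40 ± 0.067) by less, and TARS2 rose (0.20 ± 0.078). A list of mitochondrial RNA synthesis and stability, called the RNA genes below, also holds POLG and TWNK, which act on mitochondrial DNA. Its genes fell in 10 of 11 cases (median -1.12), led by SLIRP (-2.88 ± 0.153). LRPPRC, the partner of SLIRP, was at -1.36 ± 0.078, and POLG, which copies mitochondrial DNA, at -1.43 ± 0.061. MTERF1 rose (0.30 ± 0.138).

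Of 7 measured regulators of mitochondrial biogenesis 3 fell, 3 rose and 1 did not pass, near the shares of all genes that fell (39.2%) and rose (46.7%), so the count sets this list apart in neither direction. PPARGC1A, the coactivator PGC-1 alpha, had 0.170 CPM in the lowest, 0.955 in the median and 3.90 in the highest adipose library, against 9.21, 19.6 and 30.6 CPM in muscle (-3.83 ± 0.233, no overlap). ESRRA, the oestrogen-related receptor it works with, fell as well (-2.30 ± 0.086), as did PPARGC1B (-1.49 ± 0.149). NRF1 (0.19 ± 0.076), a factor known to bind promoters of mitochondrial genes, rose in adipose, as did GABPB1 (0.36 ± 0.085) and MYC (0.45 ± 0.155). PPRC1, a further coactivator, did not pass (-0.11 ± 0.113).

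These lists also shift with the scaling. With library totals 37 of the 41 respiratory chain genes (median -1.10) and 10 of the 11 TCA cycle genes (median -1.46) still passed as lower in adipose, while COX8A and COX7A2 passed as higher. Of the translation factors 4 of 11 were then lower in adipose and 6 higher, with MTIF2 turning to 0.87. Of the assembly factors 1 of 15 was lower and 11 were higher, of the aminoacyl-tRNA synthetases 1 of 13 and 10, of the RNA genes 1 of 11 and 6, and of the regulators 2 of 7 and 4. Of all genes 12.1% were lower and 80.9% higher on that scale. The counts of the assembly factors and synthetases were near these shares and do not set those lists apart. Relative to the median of all genes, the respiratory chain stood at -2.61, the translation factors at -1.04, the RNA genes at -1.26, the assembly factors at -0.74 and the synthetases at -0.30 on that scale. Such distances stay nearly the same under a change of scale by construction.

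**Figure D4:**
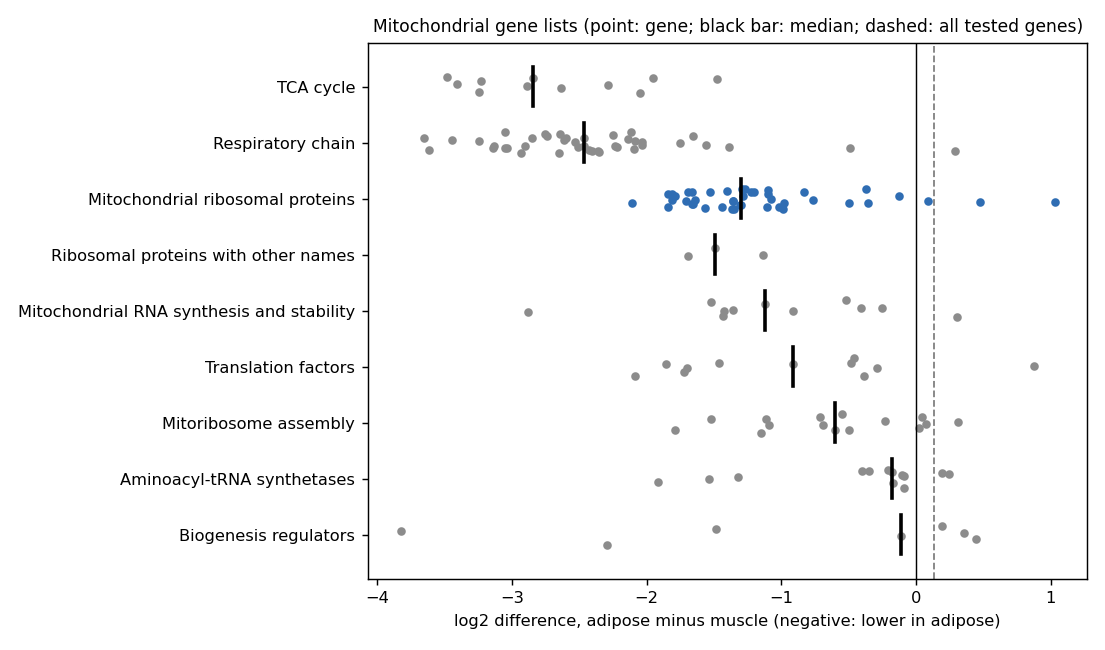
The log2 difference (x axis, adipose minus muscle) of each tested gene in 9 mitochondrial gene lists (rows), with the list median as a black bar and the median of all tested genes dashed. The mitochondrial ribosomal proteins (blue, median -1.30) lie between the respiratory chain (-2.47) and the assembly factors (-0.60).

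Whether a pig with a high level in adipose also had a high level in muscle was asked gene by gene, over 18 pigs, in the 11076 genes that reached 1 CPM in 15 or more libraries of both tissues. None of the 43 mitochondrial ribosomal protein genes passed, in a two-sided permutation test of Spearman's rho (100000 permutations, adjusted over all 11076 genes), where 0.605% of all genes passed. At an unadjusted permutation p under 0.05 there were 7 of 43, against 14.3% of all genes. By Pearson's r no gene of the 43 passed either, with 4 at an unadjusted permutation p under 0.05. The shares of all genes given above are for Spearman's rho. The share by Pearson's r is not given here, so the Pearson counts cannot be set against all genes. The median rho of the 43 was 0.19, against 0.18 for all genes, and 31 of 43 were above 0, where 75.1% of all genes were.

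The highest correlation between tissues was that of MRPS5 (rho 0.67, permutation p = 0.00321, adjusted p = 0.116). Its Pearson's r was 0.61 (permutation p = 0.00713, adjusted p = 0.137). It was 0.63 without the 2 pigs whose adipose level was farthest from the adipose median. These 2 pigs were picked anew for each gene, and pigs far out in muscle alone stayed in. MRPL17 followed (rho 0.62, adjusted p = 0.156), with Pearson's r of 0.41 and of 0.57 without its 2 pigs. MRPS34 was next (rho 0.62, adjusted p = 0.156; Pearson's r 0.56 and 0.60). The lowest was that of MRPS31 (rho -0.61, permutation p = 0.00901, adjusted p = 0.171). Its Pearson's r was -0.41, and -0.65 without the 2 pigs farthest out in adipose. MRPL39 (rho -0.47) and MRPL47 (rho -0.33) came after it. None of these relations passed the adjustment. With library totals alone MRPS5 (rho 0.79), MRPL17 (rho 0.75), MRPL35 and MRPS27 (rho 0.70 each) passed, on a scale where 3.75% of all genes did.

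Within a tissue the genes tended to go up and down together from pig to pig. Over the 903 pairs of the 43 genes the median rho was 0.23 in adipose, with 76.1% of pairs above 0, and 0.28 in muscle, with 82.6% above 0. Over all pairs of the 11076 genes it was 0.00 in both tissues. With library totals alone the median in muscle was 0.63, on a scale where all pairs of genes had a median of 0.30. Pairs share the same 18 libraries and are not independent, so these values are a description. Pairs within the large subunit had a median of 0.24 in adipose and 0.30 in muscle, and pairs within the small subunit 0.21 and 0.18. The respiratory chain subunits had a median of 0.58 in adipose and of 0.54 in muscle over 40 genes. Pairs of a ribosomal protein and a respiratory chain gene had a median of 0.32 in adipose and 0.28 in muscle, and pairs of translation factors 0.05 and 0.04. Without pig Sample_231 the median over the 903 pairs was 0.23 in adipose and 0.19 in muscle.

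Single genes differed in how far they followed the rest. In adipose MRPL52 had the highest mean rho with the other 42 genes (0.42), before MRPL18 (0.37) and MRPL13 (0.34), and MRPS18B (-0.17), MRPL49 (-0.11) and MRPL54 (-0.04) the lowest. In muscle MRPL3 (0.41), MRPL9 (0.37) and MRPL46 (0.37) were highest, and MRPL10 (-0.13), MRPS5 (-0.05) and MRPS6 (0.16) lowest. The closest pair was MRPL38 and MRPS34 in adipose (rho 0.83) and MRPL11 and MRPL15 in muscle (rho 0.87). The pair furthest apart was MRPL54 and MRPS10 in adipose (rho -0.69) and MRPS18B and MRPS9 in muscle (rho -0.55). MRPL10, which did not pass between tissues, had the lowest mean rho in muscle.

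**Figure D5:**
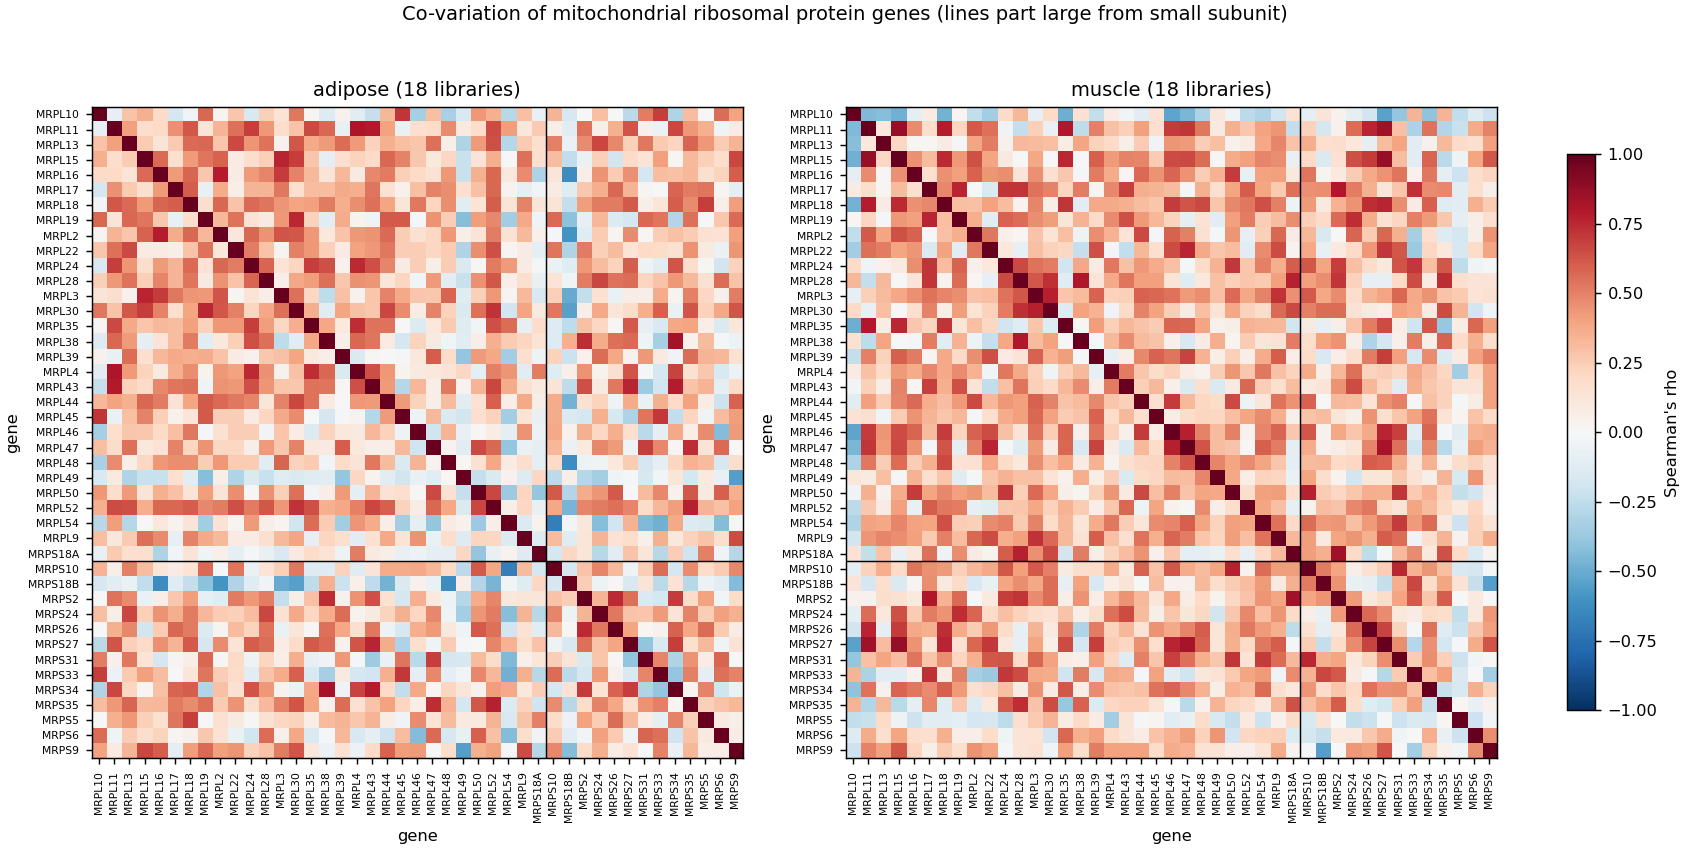
Spearman's rho (colour, -1 to 1) between every pair of the 43 genes over the 18 adipose libraries on the left and over the 18 muscle libraries on the right, with black lines between large and small subunit. Most cells are red, and pale or blue stripes mark MRPS18B and MRPL49 in adipose and MRPL10 and MRPS5 in muscle.

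A score per library, the mean of the 43 standardised levels on the TMM scale, gives the order of the pigs. It was highest in pig Sample_911 (1.16) and lowest in pig Sample_186 (-1.02) in adipose, and highest in pig Sample_231 (1.85) in muscle. The score in adipose and that in muscle had a rho of 0.21 and an r of 0.13 over the 18 pigs, given as a description. It moved with the score of the assembly factors (rho 0.87 in adipose, 0.65 in muscle) and of mitochondrial RNA genes (0.87 and 0.76). With complex I rho was 0.74 and 0.74. Lower values were seen for complexes II to V, at 0.49 to 0.69 in adipose and 0.48 to 0.56 in muscle. Translation factors (0.47 and 0.32) and TCA cycle genes (0.39 and 0.38) were lower as well. With the synthetases rho was 0.20 and 0.64. For the whole respiratory chain Pearson's r was 0.79 in adipose and 0.75 in muscle. Without the 2 libraries farthest from the median of the chain's score it was 0.78 and 0.49. With the biogenesis regulators rho was 0.13 in adipose and 0.74 in muscle. It moved little with gene counts per library (rho -0.03 in adipose, 0.02 in muscle). With ACTA1 rho was 0.30 in adipose and -0.28 in muscle, and with the adipocyte markers 0.41 and -0.03. With the percentage of counts outside annotated genes rho was -0.38 in adipose and 0.12 in muscle. Its dependence on these measures was not tested further.

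The 8 other genes with a symbol that followed this score most closely, ranked by the lower rho of both tissues over 18 libraries each, were as follows. NAA20, a subunit of an N-terminal acetyltransferase, had a rho of 0.75 in adipose and 0.74 in muscle. NDUFS6, a complex I subunit, had 0.80 and 0.73, and NIFK, a nucleolar protein, 0.73 and 0.81. TMA16 had 0.76 and 0.72, and TRMT10C, part of mitochondrial RNase P, 0.76 and 0.72. FAM32A had 0.71 and 0.75, LSM5, which binds U6 RNA, 0.75 and 0.70, and CHCHD10, a mitochondrial protein, 0.70 and 0.78. These were picked as the highest among all other genes, so the values describe the 36 libraries and carry no test.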

How the data were processed

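Per the labels' protocols, total RNA came from a MagMAX kit, a TruSeq RNA kit gave the libraries, and reads were paired, 100 nt long, from a HiSeq 2000. The authors' deposited table holds expected counts that were not normalised; they come in steps of 0.5, and 35.1% of the gene values are not whole. The submitters' processing notes name GSNAP and HTSeq without versions; the genome build and gene annotation were not given in the sources used here. Values were rounded (ties to even). The 5 lines that name no gene stayed out of library sizes: counts outside annotated genes made up 34.5% ± 5.60 of an adipose and 19.9% ± 4.01 of a muscle library (SD, n = 18). Unused columns numbered 0. A name table gave symbols for 11804 of 25322 IDs. The RefSeq table of Sscrofa11.1, which held all 44 genes, gave positions for overlaps only. Sequences and gene lengths were not used here.

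Tissue and pig came from the sample titles. The libraries with the same number come from the same animal, so the numbers pair the samples. Deviations from the tissue means correlated at 0.232 on average within a pig (0.0993 to 0.368) and at -0.0137 between pigs. The labels give no batch. Tissues were compared with edgeR 4.0.16 in R 4.3.3 (quasi-likelihood, robust, tissue alone, TMM factors, default filter, Benjamini-Hochberg over 12542 genes). The SE is the log2 difference over the square root of F. CPM are TMM-scaled counts computed here. Correlations used log2 CPM (prior count 2) and Spearman's rho with 100000 permutations, computed with numba 0.67.0, pandas 2.3.3, SciPy 1.17.1 and NumPy 2.4.6 under Python 3.11.15. Alternatives were run with DESeq2 1.42.0. The tests were run on simulated data. With 100 genes changed at each size, edgeR recovered 57.0% at a log2 difference of 0.5 and 99.0% at 1. Of its calls 5.70% were false. Far fewer genes changed there than here and pigs were not paired, so that run does not test the scaling or the pairing. Figures were drawn with Matplotlib 3.10.9.

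The genes, lists, roles and tests were chosen with earlier results of these data known. Named genes are the 8 with the largest log2 difference in each direction among those that passed, the 6 with the highest mean CPM, those with an assigned site, the 3 with the highest and the 3 with the lowest correlation between tissues and mean pairwise rho, those left out by the filter and, for each list, up to 4 with the highest mean CPM. Other genes were named after their values were seen, and 1 gene that the rule names is not reported here.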

Additional observations from a re-analysis of the deposited data

How the results depend on the processing

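Of the alternatives tried, library totals in place of TMM factors changed calls. With them 16 genes rose and 12 fell, the median difference was 0.068, 4 genes were correlated between tissues with a median rho of 0.40 (0.27 over all genes), and the median pairwise rho in muscle was 0.63 (0.30 over all pairs of genes). The sign turned for 23 genes: MRPL10 (1.24), MRPL4 (1.02), MRPS31 (0.99), MRPL49 (0.88), MRPS2 (0.59), MRPL54 (0.54), MRPL22 (0.41), MRPL44 (0.38), MRPL47 (0.36), MRPL13 (0.30), MRPS9 (0.29), MRPS5 (0.28), MRPS18B (0.26), MRPL39 (0.19), MRPL9 (0.15), MRPL50 (0.11), MRPS26 (0.11), MRPL19 (0.077), MRPL17 (0.068), MRPS33 (0.051), MRPL52 (0.019), MRPL35 (0.012) and MRPL28 (3.1e-05). The shift of all genes by 1.37 comes with that scale by construction. MRPS10 (1.45) and MRPL10 then passed as higher in adipose. MRPS18A, MRPL11, MRPL48, MRPL46 and MRPL3 kept their sign but no longer passed. Of the genes whose sign turned, MRPL39, MRPL9, MRPL50, MRPS26, MRPL19, MRPL17, MRPS33, MRPL52, MRPL35 and MRPL28 did not pass either. In all, 15 of the 43 genes did not pass on that scale. DESeq2's Wald test and size factors, other filters, doubled values and leaving out pigs Sample_731, Sample_391, Sample_176 and Sample_911, pigs Sample_656, Sample_572 and Sample_735, or pig Sample_231 (chosen after seeing the data) kept the direction and call of all 43 genes, with medians of -1.34 to -1.25. The replicate block of pig numbers also changed no call (2 higher, 39 lower, median -1.29). Without pig Sample_231 the median pairwise rho in muscle was 0.19. Single replicates were not left out in turn, since each tissue has 18. With Pearson correlation, with library totals or ACTA1 regressed out, or without those sets of pigs, 0 genes were correlated between tissues and the median stayed within 0.16 to 0.25. At this depth MRPL55 could not be compared. Gene lengths were not used, so CPM ranks between genes can follow length.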
